A study of Mus musculus with 15 samples.

Results

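Adult mouse oocytes that had matured to metaphase II in vivo were compared with oocytes still arrested at the germinal vesicle stage. The comparison used 5 of the 15 arrays of the series, chosen by their titles alone. They were 3 arrays of in vivo matured oocytes and 2 arrays of germinal vesicle oocytes, and every array held RNA of a pool of 150 oocytes. All 5 pools came from B6D2F1 hybrid females aged 7 to 8 weeks. Germinal vesicle (GV) oocytes were taken from ovaries 48 h after PMSG (pregnant mare serum gonadotropin, which drives follicle growth). In vivo matured oocytes came from females that also received human chorionic gonadotropin (hCG), the ovulatory stimulus, 48 h after PMSG. Both groups were stripped of cumulus cells with 1% hyaluronidase, so PMSG and the enzyme were common to both and hCG was given to 1 group only. The labels used here do not give the hours between hCG and collection. Poly(A) RNA was captured on oligo(dT) beads, amplified over 2 cycles and hybridized to Affymetrix arrays, on which a probe set is a group of short probes for 1 transcript.

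A fully grown GV oocyte is held in prophase of the first meiotic division, with its nucleus intact, its transcription shut off and a large store of maternal mRNA. After the ovulatory stimulus it resumes meiosis, extrudes a polar body and stops again at metaphase II (MII), the stage that is fertilized. Between these stages some stored mRNAs lengthen their poly(A) tails and are translated, while others lose their tails and are degraded. Because RNA was captured through the poly(A) tail, the amount of a transcript and the length of its tail cannot be told apart here. In a bulk pool, fewer cells of a type and less RNA per cell cannot be told apart either.

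Brightness differed between the stages. A deposited intensity of 200 was exceeded by 9819 and 9696 probe sets in the GV arrays and by 3035, 6734 and 6458 in the in vivo MII arrays. In vivo replicate 1 was thus the dimmest of the 5 arrays. Hybridization controls, which are added in equal amounts after amplification, ran the other way, from 1640 to 1667 in GV arrays and from 1866 to 2527 in MII arrays. The 3' signal of the Gapdh control exceeded its 5' signal by 13.7 and 17.7 times in the GV arrays and by 3.31, 19.7 and 20.5 times in the MII arrays. The ratio of 3.31 came from the dim in vivo replicate 1. Its 3' signal was 24.6, against 356 and 238 in the other MII arrays. Its 5' signal was 7.45, near the array median of 7.61, so that ratio does not show better RNA. Levels are given below as log2 intensity after quantile normalization, which gives all 15 arrays the same distribution of values. That step removes any difference in the total amount of message between the stages.

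Maturation in vivo went with widespread differences in both directions. Differences are in vivo MII minus GV on the log2 scale, and a gene was called when its adjusted p in limma, a linear model fitted across all probe sets, was below 0.05. Of 12028 genes tested, 3677 were called (30.6%), with 2199 higher at MII (18.3%) and 1478 lower (12.3%). These shares are the background for the counts of every gene list below. The falls were the deeper ones. Genes called lower had a median difference of -2.83, and 299 of them differed by at least 4, while genes called higher had a median of 1.71, and 4 of them reached 4. The median of all genes tested was 0.26. Split by the mean level of the 5 arrays, the fifth with the highest levels had 936 of 2406 genes higher and 412 lower, and the next had 820 of 2405 higher and 529 lower. Calls were rarer at low levels, with 38 higher and 53 lower of 2406 genes in the lowest. The 3 MII arrays all lay above both GV arrays in 34.3% of genes and all below them in 24.2%, and among called genes this held for 2196 of the rises and 1477 of the falls.

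**Figure D1:**
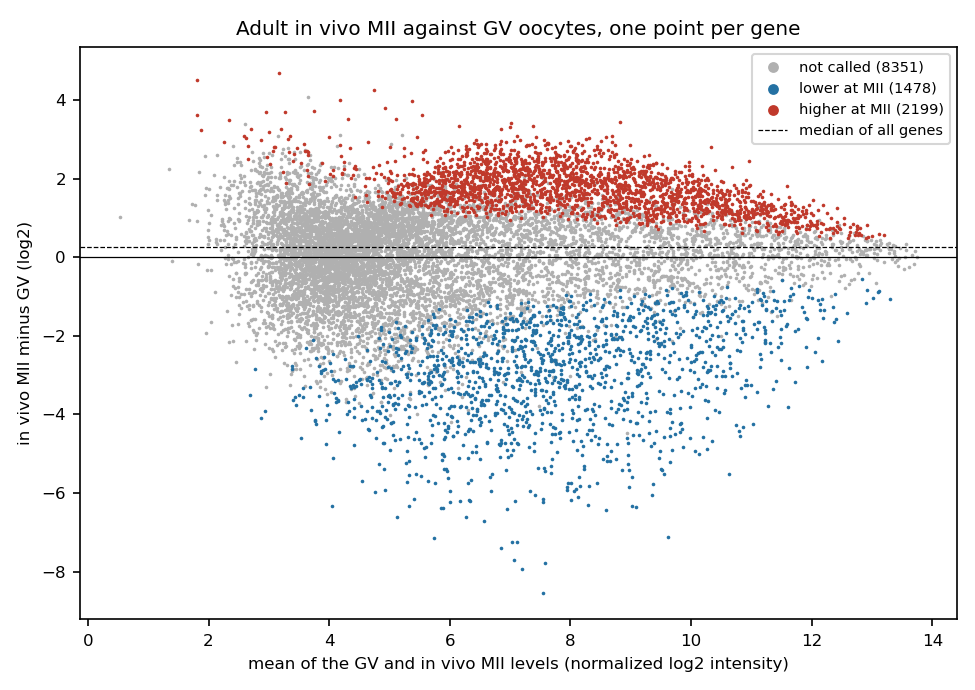
Each point is 1 gene, placed by the mean of its GV and in vivo MII levels (x axis, normalized log2 intensity) and by the difference between the stages (y axis, log2). Called falls (1478 genes, blue) reach down to -8.54, while called rises (2199 genes, red) lie mostly between 1 and 3, and the dashed line marks the median of all genes at 0.26.

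The direction of the weaker differences depended on the scaling. By probe sets, 3542 (15.7%) were called higher and 2495 (11.1%) lower of 22519 tested after quantile normalization (26.8% in all), so that 58.7% of calls were higher. With every array scaled to a common median, 1193 were higher and 3805 lower (23.9% higher). Without any scaling between arrays, 23 were called higher and 3396 lower (0.673% higher). The median difference of all probe sets was 0.24, -0.19 and -0.97 under the 3 scalings. At the gene level, 1300 of the 1478 falls passed with all 3 scalings, whereas 11 of the 2199 rises did and 762 passed with both quantile normalization and median scaling. No call turned into a call of the opposite direction under either other scaling. A rise therefore reads as a larger share of the message captured at MII, relative to the other transcripts, whereas 1300 falls passed under each choice. Both other scalings lowered the median difference, which favours falls over rises. Passing with all 3 scalings is thus a weaker test for a fall than for a rise. The number of calls also rested on both GV arrays: 3813 probe sets were called without GV replicate 1 and 3308 without GV replicate 2. At the gene level 1066 of the 2199 rises and 777 of the 1478 falls kept their call when any 1 of the 5 arrays was left out. Below, the members of a list that held in this way are counted beside the call as having held without each array. Unless another result is given, each gene named below as having risen or fallen held in the same way.

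**Figure D2:**
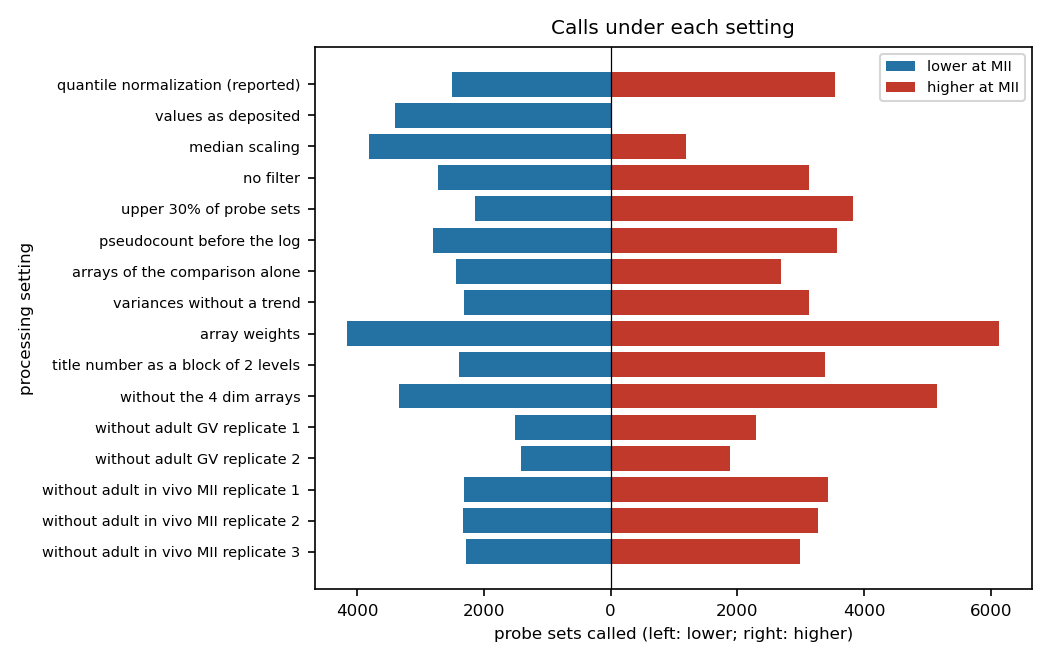
Probe sets called lower (blue, left) and higher (red, right) at MII under each processing setting. Lower calls number from 1416 to 4153 in all settings shown, while higher calls drop from 3542 to 1193 with median scaling and to 23 with the values as deposited.

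Transcripts of the zona pellucida, the glycoprotein coat of the egg, fell together. Zp2, which encodes a zona protein that binds sperm, stood at 13.17 and 12.85 in GV oocytes and at 7.49, 9.01 and 9.25 at MII. Zp1 stood at 11.28 and 12.21 in GV oocytes and at 5.99, 7.73 and 7.33 at MII. In both genes every MII array lay below every GV array. Zp2 fell by 4.43 (SE 0.45), Zp1 by 4.73 (SE 0.66) and Zp3 by 4.24 (SE 0.35). Cd9, a tetraspanin of the egg membrane needed for fusion with sperm, fell by 3.49 (SE 0.78), and Oosp2, which encodes an oocyte secreted protein, fell by 1.77 (SE 0.28). In all, 5 of the 10 tested members of the egg coat and sperm binding list were lower and 0 higher, with a median of -1.68, and all 5 passed with each of the 3 scalings and held without each array. Oosp1, a relative of Oosp2, was at 13.01 and 13.05 in GV oocytes and at 12.98, 13.07 and 13.30 at MII, so the groups overlapped. Its difference was 0.09 (SE 0.18).

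The subcortical maternal complex, an assembly of maternal proteins under the egg membrane that embryos need for their first cleavages, fell in 5 of its genes. Padi6, a peptidylarginine deiminase required for the cytoplasmic lattices, stood at 11.98 and 12.62 in GV oocytes and at 4.58, 8.38 and 7.37 at MII. Ooep stood at 13.32 and 13.29 in GV oocytes and at 10.19, 9.91 and 10.27 at MII. The stages were well apart in both genes, and the 3 MII arrays scattered by nearly 4 log2 units in Padi6 and by less than 0.5 in Ooep. The falls were 5.52 (SE 0.82) for Padi6, 3.18 (SE 0.24) for Ooep, 3.12 (SE 0.58) for Tle6 and 1.66 (SE 0.28) for Nlrp5. Khdc3 fell by 3.16 (SE 0.83), a call that ended without GV replicate 2 (adjusted p = 0.13). The oocyte transcription factors Nobox and Lhx8 fell by 3.86 (SE 0.55) and 3.03. Among maternal effect genes as a whole, 14 of 35 tested were lower and 4 higher, with a median of -0.74, and 7 falls and 2 rises held without each array. The share lower, 40%, stands beside 35% in the fifth of genes with the highest GV level. Zbed3, also assigned to the complex, was at 13.66 and 13.60 in GV oocytes and at 13.70, 13.80 and 13.84 at MII, a difference of 0.15 (SE 0.13) that did not pass. These levels are near the top of the scale, so the small difference does not show that the transcript was stable. The linker histone gene H1f8 and Dppa3, which protects the maternal genome from demethylation, had differences of -0.25 (SE 0.90) and -0.07 (SE 0.40), and the groups overlapped in both.

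The secreted growth factors Gdf9 and Bmp15, through which the oocyte acts on its cumulus cells, gave no call on the probe sets that represent them. Gdf9 was at 13.60 and 13.50 in GV oocytes and at 12.89, 13.55 and 13.53 at MII, and Bmp15 was at 10.54 and 12.07 and at 12.04, 10.94 and 10.79. The groups overlapped in both genes, although another probe set of Bmp15 was called lower (-2.37). Kit, the receptor through which granulosa cells signal to the oocyte, had a difference of -0.63 (SE 0.32) that did not pass. Of the 12 tested genes of growth factor and Kit signalling, 3 were higher and 1 lower, of which 1 rise and 0 falls held without each array. The fall was that of Bmp6, with a difference of -0.97 (SE 0.29), a call lost with median scaling and without GV replicate 2 or in vivo replicate 2 (adjusted p up to 0.22). Fgf16 rose by 3.62 (SE 0.76) from 0.39 and -0.38, which are values near the bottom of the scale. Both are below the mean level required for testing, so Fgf16 was tested only through its MII levels.

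**Figure D3:**
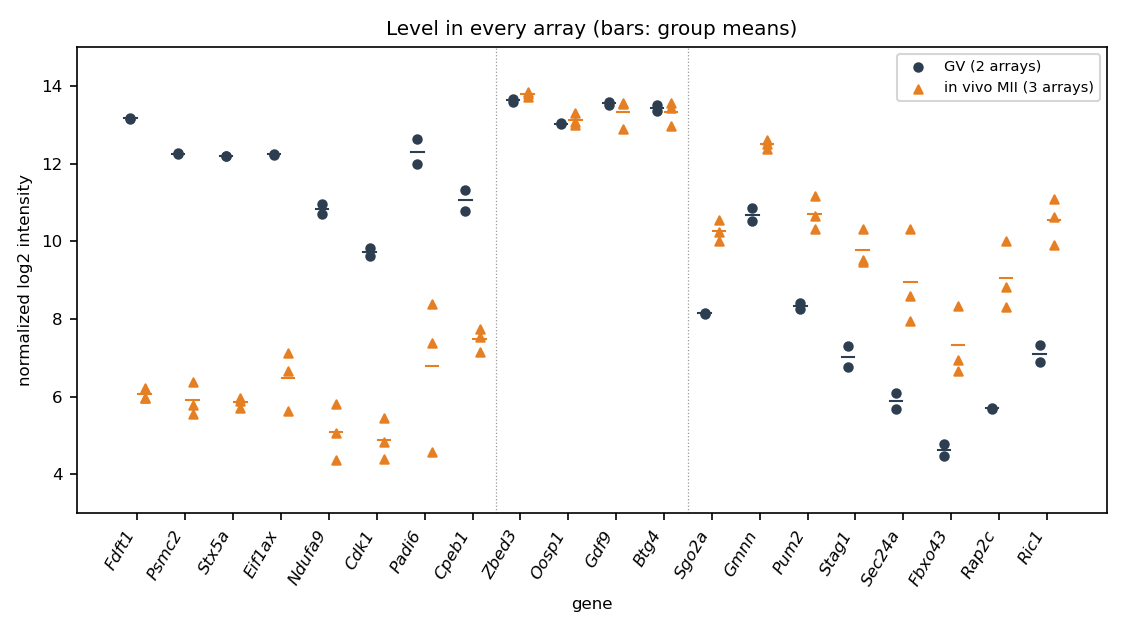
Level of 20 genes in every array (y axis, normalized log2 intensity), with 2 GV arrays as dark circles, 3 in vivo MII arrays as orange triangles and group means as bars. The genes were picked after their values were seen: 8 that fell stand on the left, 4 with differences between -0.23 and 0.15 in the middle, and 8 that rose on the right, and the groups overlap in none of the 16 outer genes. The 4 middle genes lie near the top of the scale, so their small differences do not show stable transcripts.

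Meiotic arrest at prophase depends on cyclic AMP, which is made downstream of the receptor Gpr3 and keeps protein kinase A active until the phosphodiesterase Pde3a breaks it down. Regulatory subunits of protein kinase A rose. Prkar2b stood at 8.58 and 8.20 in GV oocytes and at 10.55, 10.12 and 10.27 at MII, a rise of 1.93 (SE 0.27). Prkar2a rose by 1.95 (SE 0.31) and Prkar1a by 2.14 (SE 0.36), and the stages did not overlap in any of these genes. With median scaling Prkar2a and Prkar2b still passed and Prkar1a did not, and with the values as deposited none of them passed. Gnas, which encodes the G protein that activates adenylyl cyclase, fell by 2.41 (SE 0.30). Pde3a and Gpr3 had differences of -0.18 (SE 0.60) and 0.21 (SE 0.95), with overlapping arrays. Another probe set of Pde3a was called higher (1.75, SE 0.60), from a mean of 3.77 in GV oocytes to 5.52 at MII. Over the list, 4 of 12 tested genes were higher and 2 lower, with a median of 0.17, and 3 rises and 1 fall held without each array.

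Genes of the Cdk1 machinery divided. Cdk1, the kinase that drives entry into both meiotic divisions, was at 9.63 and 9.82 in GV oocytes and at 5.46, 4.39 and 4.84 at MII, a fall of 4.83 (SE 0.70). Its partner Ccnb2 was at 9.74 and 9.78 in GV oocytes and at 9.57, 10.57 and 10.63 at MII, a difference of 0.50 (SE 0.35) that did not pass. The kinase transcript was thus far lower at MII while that of its cyclin overlapped between stages. The related inhibitors of the anaphase-promoting complex also went apart. Fbxo5, known as Emi1, fell by 2.57 (SE 0.40), while Fbxo43, known as Emi2 and the factor that holds the egg at MII, stood at 4.78 and 4.46 in GV oocytes and at 8.34, 6.67 and 6.95 at MII. Fbxo43 rose by 2.70 (SE 0.54), and the difference was 2.03 with median scaling (called) and 1.26 with the values as deposited (not called). Cdc20, the activator of the anaphase-promoting complex, rose by 1.26 (SE 0.22).

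Among 14 tested subunits of the anaphase-promoting complex itself, 5 were higher and 4 lower. Cdc27 rose by 1.91 (SE 0.28) and Anapc10, which helps recognize substrates, by 1.86 (SE 0.24), both also with median scaling. Anapc15 fell by 2.32, with all 3 scalings. The cullin Anapc2, which holds the catalytic module, fell by 3.10 (SE 0.93), a call that ended without either GV array or in vivo replicate 1 (adjusted p up to 0.15). Over the whole list of Cdk1, cyclins and anaphase-promoting complex genes, 13 of 37 tested were higher and 8 lower, with a median of 0.05, and 7 rises and 5 falls held without each array. With median scaling 8 were higher and 12 lower, and with the values as deposited 0 and 10.

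Mos, the kinase that activates MAP kinase in eggs, was at 11.27 and 11.70 in GV oocytes and at 6.06, 12.39 and 10.02 at MII. Its difference of -2.00 (SE 1.62) did not pass, and the lowest value came from in vivo replicate 1, the dimmest array. In the list of Mos, MAP kinase and MII arrest genes, 3 of 9 tested were higher and 1 lower, of which 2 rises and the fall held without each array. The phosphatase catalytic subunit Ppp2ca fell by 2.45 (SE 0.34), although another of its probe sets was called in the opposite direction.

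Of 14 tested genes of cohesin and its regulators, 9 were higher and 2 lower, beside 18.3% higher and 12.3% lower of all genes. Cohesin holds sister chromatids together and shugoshin protects it at centromeres until the second division. Sgo2a, the shugoshin needed in oocytes, was at 8.14 and 8.15 in GV oocytes and at 10.55, 9.99 and 10.24 at MII. Stag1 was at 7.30 and 6.75 in GV oocytes and at 10.30, 9.47 and 9.51 at MII. Both were higher in every MII array than in either GV array. Sgo2a rose by 2.12 (SE 0.26), Stag1 by 2.74 (SE 0.35), Stag2 by 2.25 (SE 0.33) and Sgo1 by 1.65 (SE 0.26), and all 4 passed with median scaling but not as deposited. The 2 genes called lower encode forms of 1 ring subunit: Smc1b, the meiotic form, had a difference of -2.87 (SE 0.80), and Smc1a one of -1.47 (SE 0.37). The call of Smc1b ended without either GV array (adjusted p up to 0.13) and that of Smc1a without GV replicate 1 (adjusted p = 0.11). The ring subunit Smc3, separase (Espl1) and securin (Pttg1) had differences of -0.12, 0.19 and 0.11 that did not pass.

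Centromere and checkpoint genes went both ways. Cenpq, a component of the constitutive centromere network, was at 10.66 and 10.65 in GV oocytes and at 5.16, 4.62 and 3.52 at MII, a fall of 6.22 (SE 0.66). Zwilch, part of the complex that brings dynein to kinetochores, fell by 5.95 (SE 0.96), and the checkpoint kinase Ttk by 3.41 (SE 0.34). Birc5, the survivin subunit of the chromosomal passenger complex, fell by 2.88 (SE 0.47). Mad2l1, the checkpoint effector, was among the most abundant of these transcripts, with 12.08 and 12.15 in GV oocytes and 12.73, 13.14 and 12.99 at MII, and rose by 0.84 (SE 0.18). Aurka, Aurkb and Aurkc, the Aurora kinases, had differences of -0.86, -0.72 and 0.04 that did not pass. Over the list, 18 of 57 tested were higher and 15 lower, with a median of 0.15. Without each array 10 rises and 11 falls held, and 12 of the 15 falls passed with all 3 scalings while 8 of the 18 rises passed with median scaling and 0 as deposited.

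Spindle pole and motor genes had 8 of 47 tested called higher and 11 lower (17% and 23.4%, beside 18.3% and 12.3% of all genes). Their median was -0.29, but 4 rises and 2 falls held without each array. Haus1, a subunit of the augmin complex that branches microtubules, was at 8.92 and 8.77 in GV oocytes and at 2.92, 3.62 and 4.70 at MII. It fell by 5.09 (SE 0.93). Tacc3, which stabilizes spindle microtubules, was at 4.78, 3.84 and 1.19 at MII, far below both GV arrays. Its difference of -8.54 (SE 1.29) was the largest fall among all tested genes, and its MII values included some below 4.17, the 60th percentile of all levels, so the size is imprecise. Kif5b, the heavy chain of kinesin-1, rose by 2.76 (SE 0.36), and Kif18a, which limits chromosome oscillation, by 1.74, both also with median scaling. Tpx2, Kif11 and the gamma-tubulin gene Tubg1 had differences of 0.23, 0.97 and 0.15 that did not pass.

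Dormant maternal mRNAs are stored with short tails in the GV oocyte and recruited for translation during maturation. Of 22 tested, 7 were higher and 2 lower, with a median of 0.23. Without each array 4 rises and both falls held, and 5 of the 7 rises passed with median scaling. Orc6, a subunit of the origin recognition complex, was at 9.62 and 9.40 in GV oocytes and at 11.37, 11.05 and 11.21 at MII, a rise of 1.70 (SE 0.23). Hprt, of purine salvage, rose by 1.64. Cdc6, the licensing factor that acts with Orc6, went the other way, from 9.81 and 9.29 to 7.14, 6.90 and 7.28, a fall of 2.44 (SE 0.42). The tissue plasminogen activator gene Plat was at 13.18 and 13.11 in GV oocytes and at 11.56, 13.49 and 13.17 at MII, and its difference of -0.41 (SE 0.55) did not pass. Btg4, an adaptor that brings deadenylase to maternal mRNA, was at 13.36 and 13.51 and at 12.97, 13.56 and 13.43, so the stages overlapped.

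Genes of mRNA decay had 16 of 56 tested called higher and 7 lower, with a median of 0.36, and 8 rises and 2 falls held without each array. Of the 10 tested subunits of the CCR4-NOT deadenylase, 5 were higher and 0 lower. Its catalytic subunits Cnot7 and Cnot6l rose by 0.60 (SE 0.15) and 0.76 (SE 0.20). Both calls ended without GV replicate 2 (adjusted p = 0.084 and 0.091), and that of Cnot6l also without GV replicate 1. Another probe set of Cnot7 was called higher by 2.06 (SE 0.30). Smg1, the kinase of nonsense-mediated decay, was at 6.30 and 6.35 in GV oocytes and at 8.63, 8.73 and 8.87 at MII, a rise of 2.42 (SE 0.27). Xrn1, the cytoplasmic exonuclease, rose by 1.98 (SE 0.41), and Lsm1, of the ring that promotes decapping, by 1.94. All 3 passed with median scaling. Tob2, an adaptor that links deadenylases to other factors, fell by 2.67 (SE 0.40), and Lsm3, shared by the decapping and splicing rings, by 1.63.

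Proteins that store mRNA and set its poly(A) tail were also divided, with 11 of 44 tested higher and 12 lower, of which 6 rises and 8 falls held without each array. Cpeb1, which binds the cytoplasmic polyadenylation element and represses or activates dormant mRNAs, was at 10.78 and 11.33 in GV oocytes and at 7.16, 7.74 and 7.54 at MII. Its relative Cpeb4 was at 9.76 and 9.96 in GV oocytes and at 12.33, 11.10 and 11.43 at MII. The relatives thus moved in opposite directions, a fall of 3.57 (SE 0.49) for Cpeb1 and a rise of 1.76 (SE 0.39) for Cpeb4. Cpsf1, the large subunit of the cleavage and polyadenylation factor, fell by 6.33 (SE 1.31), the scaffold Sympk by 4.17 (SE 0.75) and Paip2, an inhibitor of poly(A) binding protein, by 4.27 (SE 0.55). Pum2, a translational repressor, rose by 2.36 (SE 0.29), the cytoplasmic poly(A) polymerase Tent2 by 1.98 (SE 0.23) and Caprin1, a stress granule protein, by 1.85. Pabpc1, the cytoplasmic poly(A) binding protein, had a difference of -0.05 (SE 0.36) that did not pass. The rises of Cpeb4, Pum2, Tent2 and Caprin1 passed with median scaling and not with the values as deposited, and 11 of the 12 falls of the list passed with all 3.

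**Figure D4:**
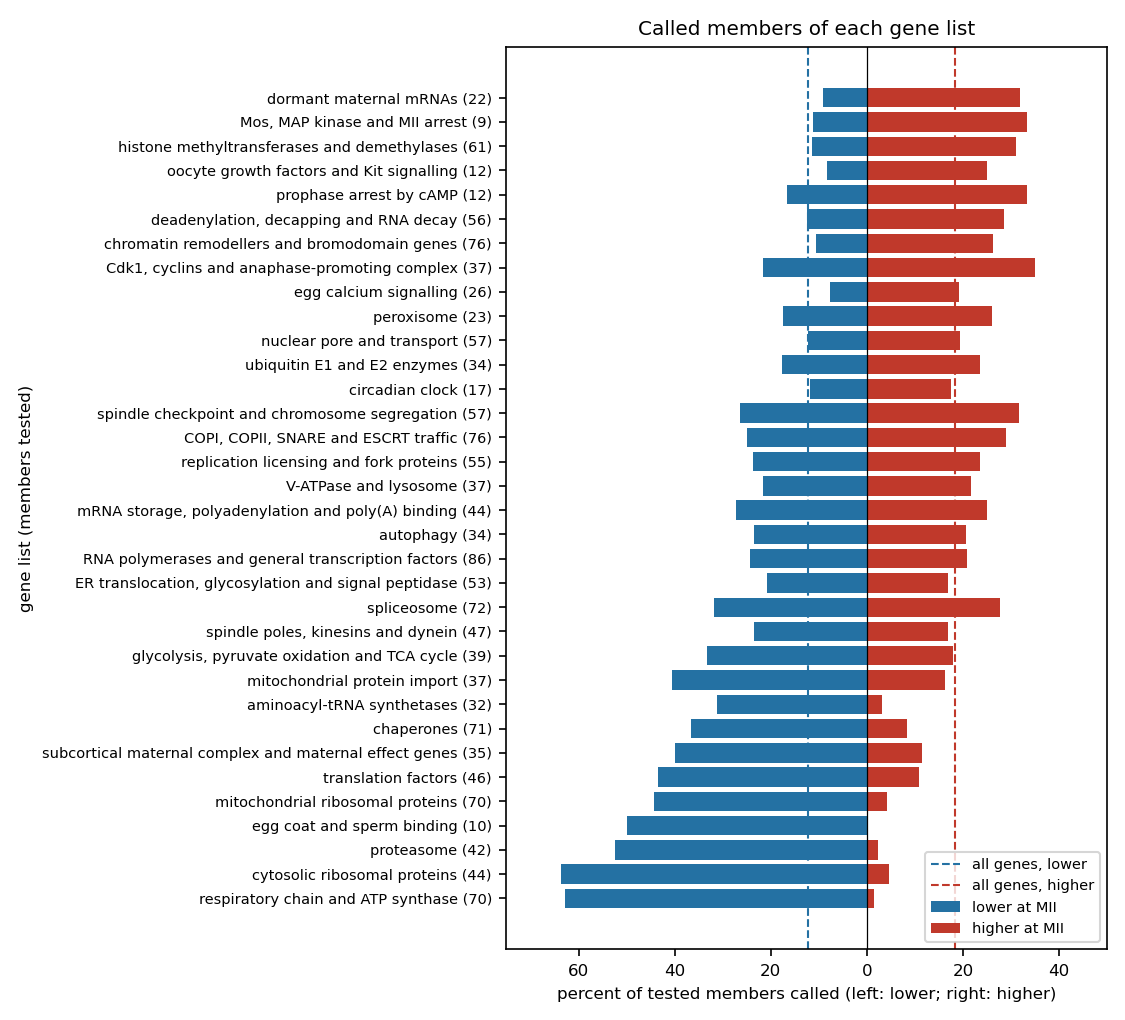
For each gene list (members tested in brackets), the percent of tested members called lower (blue, left) and higher (red, right) at MII, ordered by the difference between them. Dashed lines mark all genes at 12.3% lower and 18.3% higher, and the respiratory chain, both ribosomes, the proteasome and the egg coat lie farthest to the left. The lines do not allow for GV level, and in the fifth of genes with the highest GV level 35% were lower.

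Genes of the protein synthesis machinery fell. Among cytosolic ribosomal proteins, 28 of 44 tested were lower and 2 higher, with a median of -2.84, and 27 of the falls passed with all 3 scalings and 17 held without each array. Rpl7a, of the large subunit, was at 12.19 and 12.32 in GV oocytes and at 7.05, 6.79 and 7.28 at MII, a fall of 5.22 (SE 0.32). Rps4x, of the small subunit, was at 12.25 and 12.14 and at 7.36, 6.19 and 6.87, a fall of 5.39 (SE 0.42). Both were thus close to the top of the scale at the GV stage and in its middle at MII. The subunits were affected alike in count, with 14 of 23 large and 14 of 21 small subunit genes lower and medians of -2.57 and -3.04. The exceptions were Rpl13a and Rps27l, and Rps27l, an inducible relative of Rps27, had a difference of 2.00 (SE 0.54), a call that ended without either GV array (adjusted p up to 0.099). Rpl13a had a difference of 0.95 (SE 0.29), a call lost with median scaling and without GV replicate 1 or in vivo replicate 1 (adjusted p up to 0.33), and 2 other probe sets of it were called lower. Ribosomal protein genes have many processed pseudogenes, and probe sets may take signal from near-identical copies.

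Translation factors had 20 of 46 tested lower and 5 higher, with a median of -1.06, and 16 falls and 1 rise held without each array. Their share lower, 43.5%, stands beside 35% in the fifth of genes with the highest GV level. The falls were uneven between factors. Of the eIF3 complex, which recruits the small subunit to mRNA, 6 of 10 subunits were lower, with a median of -3.43. Of the elongation factors, 5 of 6 were lower, with a median of -3.03. Eef1a1, which delivers aminoacyl-tRNA, was at 12.43 and 12.55 in GV oocytes and at 7.98, 7.76 and 8.00 at MII, a fall of 4.58 (SE 0.30). Eif1ax, which acts in start codon selection, fell by 5.76 (SE 0.56) from 12.23 and 12.25. In the eIF4 group, which binds the cap, 3 of 11 were lower and 2 higher, with a median of 0.34. The cap-binding protein gene Eif4e had a difference of 0.85 (SE 0.21), a call that ended without GV replicate 2 (adjusted p = 0.061), and another of its probe sets was called lower. Among aminoacyl-tRNA synthetases 10 of 32 were lower and 1 higher, of which 6 falls and 0 rises held without each array. Qars fell by 4.19 (SE 0.33) and Rars by 4.76 (SE 0.49).

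Many mitochondrial genes encoded in the nucleus fell. Of 70 tested genes of the respiratory chain and ATP synthase, 44 were lower and 1 higher, with a median of -2.13, and 40 of the falls passed with all 3 scalings and 28 held without each array. Complex I had 21 of 33 lower, complex II 1 of 4, complex III 5 of 9, complex IV 6 of 9 and ATP synthase 10 of 14. Ndufv1, a flavoprotein at the entry point of complex I, was at 10.21 and 10.14 in GV oocytes and at 3.74, 4.06 and 4.12 at MII, a fall of 6.21 (SE 0.45). Cox4i1, of complex IV, was at 11.07 and 10.88 and at 5.80, 6.15 and 6.73, a fall of 4.75 (SE 0.54). In both the stages stood more than 4 units apart in every array. Not all subunits followed: Atp5b, the catalytic subunit of ATP synthase, and Sdha, of complex II, had differences of -0.33 and 0.44 that did not pass, and Ndufs4 rose by 1.80 (SE 0.38), a call lost with median scaling and, with the values as deposited, turned to a difference of -0.12.

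The mitochondrial ribosome had 31 of 70 tested genes lower and 3 higher, with a median of -1.72, and 17 falls and 2 rises held without each array. Mrps22 was at 10.95 and 11.44 in GV oocytes and at 6.31, 5.59 and 6.12 at MII, a fall of 5.19 (SE 0.43). In the import machinery 15 of 37 were lower and 6 higher, of which 10 falls and 3 rises held without each array. Timm17a, of the inner membrane translocase, was at 10.66 and 10.80 and at 2.96, 3.69 and 3.79, a fall of 7.25 (SE 0.85), while its partner Timm21 rose by 2.17. The outer membrane channels separated by paralog. Vdac3 was at 12.03 and 11.81 in GV oocytes and at 7.26, 7.26 and 7.59 at MII, and Vdac1 was at 9.53 and 9.62 and at 11.85, 11.21 and 11.39. The stages did not overlap in either gene. Vdac3 fell by 4.55 (SE 0.43), Vdac1 rose by 1.91 (SE 0.31, also with median scaling), and Vdac2 had a difference of -2.23 (SE 0.50), whose call ended without GV replicate 2 (adjusted p = 0.052).

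The genome of the mitochondrion itself was represented by ND5, a subunit of complex I, which was noticed after its values were seen. Its deposited intensities were 869.5 and 1670 in GV oocytes and 4580, 3072 and 4709 at MII. All 3 MII arrays were brighter than both GV arrays even before normalization. ND5 rose by 2.79 (SE 0.54) after it, and passed with all 3 scalings.

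Energy metabolism was less uniform. Of 39 tested genes of glycolysis, pyruvate oxidation and the TCA cycle, 13 were lower and 7 higher, with a median of -0.27, and 8 falls and 6 rises held without each array. Mdh2, mitochondrial malate dehydrogenase, fell by 5.42 (SE 0.99), and Dlst, of the oxoglutarate dehydrogenase complex, by 4.72 (SE 0.58). Idh1, the cytosolic isocitrate dehydrogenase that makes NADPH, was at 7.88 and 7.65 in GV oocytes and at 10.11, 9.74 and 10.50 at MII, a rise of 2.35 (SE 0.29). Hk2, the first enzyme of glycolysis, rose by 1.85 (SE 0.32), and Pdk1, which switches off pyruvate dehydrogenase, by 1.97. Idh1 and Pdk1 passed with median scaling, and Hk2 did not and had a difference of -0.09 with the values as deposited.

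**Figure D5:**
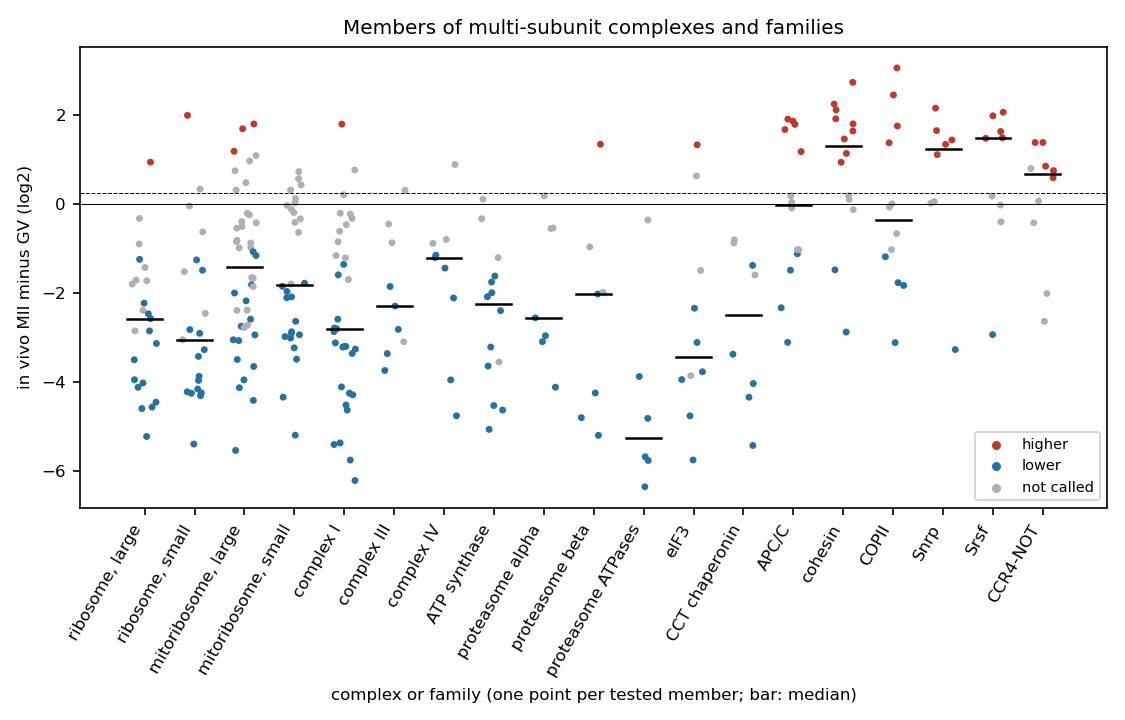
Difference between in vivo MII and GV (y axis, log2) of each tested member of 19 complexes or families, with calls in colour, a bar at each median, a solid line at 0 and a dashed line at the median of all genes (0.26). Medians lie between -5.24 and -1.20 in the 13 ribosomal, mitochondrial, proteasome, eIF3 and CCT groups on the left and between -0.36 and 1.48 in the 6 groups on the right, where APC/C is the anaphase-promoting complex.

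The proteasome, which degrades ubiquitinated proteins, had 22 of 42 tested genes lower and 1 higher, with a median of -2.29, and 17 falls and the rise held without each array. The ATPase ring that unfolds substrates was the part with the lowest median, -5.24, and 5 of its 6 genes fell. Psmc2 was at 12.26 and 12.24 in GV oocytes and at 6.37, 5.79 and 5.55 at MII, a fall of 6.34 (SE 0.48). The sixth, Psmc6, had a difference of -0.35 that did not pass. The core had 4 of 7 alpha and 4 of 7 beta subunit genes lower, and Psmd14, the deubiquitinase of the lid, fell by 7.24 (SE 1.07). Assembly factors and activators had 1 of 8 lower, with a median of -0.04. Psmb3 was the exception in the core, with 9.26 and 9.41 in GV oocytes and 11.17, 10.56 and 10.31 at MII, a rise of 1.35 (SE 0.29) that passed with median scaling. Ubiquitin E1 and E2 enzymes had 6 of 34 lower and 8 higher (17.6% and 23.5%, beside 12.3% and 18.3% of all genes). Their median was -0.19, and 2 falls and 4 rises held without each array.

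Chaperone genes had 26 of 71 tested lower and 6 higher, with a median of -0.91, and 18 falls and 2 rises held without each array. The CCT chaperonin, which folds actin and tubulin, had 5 of 8 lower, and all 8 of its differences were negative. Cct5 was at 12.28 and 12.17 in GV oocytes and at 6.04, 7.10 and 7.29 at MII, and it fell by 5.42 (SE 0.45). Hspa8, the constitutive Hsp70, was at 13.44 and 13.58 and at 10.79, 9.03 and 9.31, a fall of 3.80 (SE 0.41). The ER members Hspa5 and Hsp90b1 fell by 3.87 (SE 0.67) and 3.33. Hsp90aa1, the inducible cytosolic Hsp90, was at 12.81 and 13.12 in GV oocytes and at 11.97, 12.60 and 12.26 at MII. Its groups did not overlap, and its difference of -0.69 (SE 0.26, adjusted p = 0.0625) did not pass.

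Membrane traffic showed opposite calls within families. Of 76 tested genes of COPI, COPII, SNARE and ESCRT transport, 22 were higher and 19 lower, with a median of -0.07, and 11 rises and 9 falls held without each array. The Sec24 proteins choose cargo for COPII vesicles. Sec24d was at 6.54 and 6.17 in GV oocytes and at 8.50, 8.79 and 9.15 at MII, and Sec24a was at 5.68 and 6.10 and at 10.31, 7.94 and 8.60. Both rose, by 2.46 (SE 0.29) and 3.06 (SE 0.67), and Sec24a passed with median scaling. Sec24b and Sec24c had differences of -3.11 (SE 0.88) and -1.76 (SE 0.59), and both calls ended without either GV array or in vivo replicate 1 (adjusted p up to 0.18 and 0.19), that of Sec24c also without in vivo replicate 3 and with the other scalings. Stx5a, the syntaxin of ER to Golgi fusion, was at 12.19 in both GV arrays and at 5.71, 5.96 and 5.90 at MII, a fall of 6.34 (SE 0.56). Other syntaxins rose, among them Stx7 by 2.29 and Stx6 by 1.96, both also with median scaling. In the COPI coat Copb2 fell by 7.94 (SE 0.91) and Copg2 rose by 1.97, the latter not with median scaling.

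Lysosomal genes gave 2 of the 11 rises that passed with all 3 scalings. Ctsc, cathepsin C, was at 0.84 and 0.80 in GV oocytes and at 6.82, 4.63 and 5.07 at MII, and Ctss, cathepsin S, was at 3.40 and 1.82 and at 8.06, 6.45 and 6.11. Both were near the bottom of the scale in GV oocytes and highest in in vivo replicate 1, the dimmest array. The rises were 4.69 (SE 1.06) and 4.27 (SE 0.84), of imprecise size. Ctsc was below the mean level required for testing in both GV arrays, so it was tested only through its MII levels. Ctss is also a leukocyte marker, and other markers of that kind are given below. Over the list, 8 of 37 tested genes were higher and 8 lower (21.6% each), of which 5 rises and 6 falls held without each array. Autophagy genes had 7 of 34 higher and 8 lower (20.6% and 23.5%, beside 18.3% and 12.3% of all genes). Of these calls 4 rises and 6 falls held without each array. Map1lc3a, which encodes an LC3 protein of the autophagosome membrane, fell by 3.89 (SE 0.47) and Uvrag by 4.15 (SE 0.50). Peroxisome genes had 6 of 23 higher and 4 lower (26.1% and 17.4%), of which 5 rises and 1 fall held without each array. Pex3, needed to form peroxisomal membranes, rose by 2.20 (SE 0.26).

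In the nucleus, genes of splicing were called in both directions. Over the spliceosome list 20 of 72 tested were higher and 23 lower, with a median of -0.27, and 9 rises and 13 falls held without each array. Among Snrp genes, which encode proteins of the small nuclear ribonucleoproteins, 5 of 8 were higher and 1 lower, and among Srsf genes, which encode serine and arginine rich regulators, 5 of 9 were higher and 1 lower. Prpf genes had 3 of 11 higher and 3 lower, Sf3 genes 2 of 9 and 4, and the other members 5 of 35 and 14, and the difference between families was not tested. Snrpf was at 8.18 and 7.20 in GV oocytes and at 9.96, 9.58 and 10.01 at MII, a rise of 2.16 (SE 0.39). Srsf1 was at 11.12 and 10.95 and at 8.47, 7.83 and 8.02, a fall of 2.93 (SE 0.34), while Srsf10 rose by 2.07 (SE 0.28). With median scaling the rise of Snrpf passed and that of Srsf10 did not, and of the 20 rises in the list 3 passed. Of the 23 falls, 18 passed with all 3 scalings, among them Puf60, a splice site factor, at -6.20 (SE 0.68).

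Genes of transcription had 18 of 86 tested higher and 21 lower (20.9% and 24.4%, beside 18.3% and 12.3% of all genes). Their median was -0.18, and 11 rises and 13 falls held without each array. Polr2b, the second largest subunit of RNA polymerase II, fell by 4.90 (SE 0.99), while the largest, Polr2a, had a difference of 0.87 (SE 0.98) and overlapping arrays. TFIID and TBP-like genes had 6 of 14 higher and 1 lower. Tbpl1, a relative of the TATA-binding protein, was at 4.93 and 5.10 in GV oocytes and at 8.56, 7.03 and 8.07 at MII, a rise of 2.87 (SE 0.55). Gtf2a1 and Gtf2a2, the subunits of TFIIA, rose by 1.92 and 1.91, Gtf2a2 not with median scaling. Gtf2f1, of TFIIF, fell by 7.14 (SE 1.19). Med13, of the Mediator kinase module, rose by 2.57 (SE 0.28), and Tbpl1, Gtf2a1 and Med13 passed with median scaling.

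Replication genes had 13 of 55 tested higher and 13 lower (23.6% each, beside 18.3% and 12.3% of all genes). Their median was -0.43, and 8 rises and 6 falls held without each array. Gmnn, which encodes geminin, the inhibitor that prevents licensing of a new round of replication, was at 10.53 and 10.85 in GV oocytes and at 12.51, 12.37 and 12.62 at MII. Gmnn rose by 1.81 (SE 0.19) and passed with median scaling. Prim1, the catalytic subunit of primase, was at 8.39 and 8.46 and at 3.32, 3.61 and 3.22, a fall of 5.04 (SE 0.61). The stages did not overlap in either gene. Mcm5 fell by 3.54, while Mcm2, Mcm4 and Mcm7 had differences of 1.23, 0.32 and 0.33 that did not pass. Rpa3, of the single-strand binding protein, rose by 2.12 and its partner Rpa1 fell by 1.55, the latter call lost with both other scalings.

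Chromatin genes had medians close to that of all genes. Histone methyltransferases and demethylases had 19 of 61 tested higher and 7 lower, with a median of 0.37, which is 0.11 above that of all genes. Chromatin remodellers and bromodomain genes had 20 of 76 higher and 8 lower, with a median of 0.39, which is 0.13 above it. Without each array 11 and 14 of these rises and 4 falls in each list held. Most members were abundant, and of the 6904 genes that reached 4.17 in all 5 arrays 2089 were called higher. With median scaling the same lists had 4 and 8 genes higher against 7 and 8 lower, and with the values as deposited 0 higher in each. Hdac9, a class IIa histone deacetylase, was at 6.60 and 6.16 in GV oocytes and at 10.20, 8.49 and 9.15 at MII, a rise of 2.90 (SE 0.51). The groups did not overlap in Hdac9, and Brwd3, a bromodomain protein, rose by 2.60 (SE 0.32). Both passed with median scaling. Nsd1, a methyltransferase of histone H3, fell by 3.13 and the demethylase Phf8 by 2.69. Nuclear pore and transport genes had 11 of 57 tested higher and 7 lower (19.3% and 12.3%), near the 18.3% and 12.3% of all genes. Among them 8 of 27 nucleoporins were higher and 2 lower, with Seh1l up by 2.34 (SE 0.44) and Nup133 down by 4.73 (SE 0.87).

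The steepest falls among genes with a signal in both stages crossed many functions. They were taken from genes in which all 5 arrays reached 4.17. Fdft1, squalene synthase of cholesterol synthesis, headed them, with 13.15 and 13.18 in GV oocytes and 5.97, 6.24 and 5.97 at MII. A second probe set of Fdft1 was called lower as well (-6.20) and another, dim one higher (1.58). The next were Elof1 (-6.43), an elongation factor of RNA polymerase II, Psmc2, Stx5a, Arg2 (-6.30), the mitochondrial arginase, Cpsf4l (-6.10) and Txndc9 (-6.04). Of the 15 genes, 3 act in translation initiation: Eif1ax, Eif3c (-5.74) and Eif2b4 (-5.73). All 15 passed with each of the 3 scalings.

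The steepest rises by the same criteria were smaller. Ric1, a partner in activating the Golgi GTPase Rab6, was at 6.90 and 7.32 in GV oocytes and at 11.10, 9.90 and 10.63 at MII, a rise of 3.43 (SE 0.40). Its deposited intensities were 439 and 530.2 in GV oocytes and 1038, 1538 and 2622 at MII, and Ric1 was the only one of these 15 genes to pass with the values as deposited. All 15 passed with median scaling. Zbtb1, a zinc finger transcription factor, rose by 3.40 (SE 0.54), and Rap2c, a small GTPase, by 3.35 (SE 0.60) from 5.68 and 5.72. Pggt1b, a prenyltransferase subunit, rose by 3.32 (SE 0.39), Dmxl1, which regulates the V-ATPase, by 3.08 (SE 0.45), and the centrosomal Cep170 by 3.02 (SE 0.30). The rise of Nectin3 (3.05) was not shared by its other probe sets, 1 of which was called lower (-2.30).

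Pde3b, a cyclic AMP phosphodiesterase, was 1 of the 11 genes that rose under all 3 scalings, which were listed after their values were seen. Its deposited intensities were 1761 and 1932 in GV oocytes and 4773, 5294 and 6542 at MII. Every MII array was thus more than 2 times brighter than either GV array in a comparison where MII arrays were dimmer in general. Pde3b rose by 2.44 (SE 0.31) after normalization. Ctsc, Ctss, Fgf16, Hivep2, ND5, Pdgfra and Ric1 were held likewise without each array, and Gm26760, Kynu and Snhg8 lost their calls without 1 or more.

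Narrow intervals of the difference were found among the brightest probe sets. In 443 of 12028 genes the 95% confidence interval of the difference lay within -1 and 1. The narrowest were Zbed3, Ern1, Cntd1, E330021D16Rik, Unc50, Kbtbd8, Tsc22d1, Klhdc2, Cnot7 and Rab14, with differences from -0.31 to 0.60. Of these 10 genes Cntd1 (0.49) and Cnot7 (0.60) were called higher on the probe sets that represent them. The call of Cntd1 ended without either GV array or in vivo replicate 1, and that of Cnot7 without GV replicate 2. The highest GV level of any gene was 13.8, so these probe sets lie near the top of the scale, and their intervals do not show that the transcripts were stable. The same limit applies to Gdf9, Oosp1 and Btg4 above. Ern1, the IRE1 sensor of unfolded protein in the ER, was at 13.08 and 13.09 in GV oocytes and at 13.45, 13.39 and 13.43 at MII, a difference of 0.34 (SE 0.14, adjusted p = 0.0905). Kbtbd8, a ubiquitin ligase adaptor, had a difference of 0.22 (SE 0.14), and E330021D16Rik one of -0.07 (SE 0.14). Actb, cytoplasmic beta-actin, was at 7.48 and 7.04 in GV oocytes and at 7.03, 7.61 and 7.33 at MII, a difference of 0.06 (SE 0.50).

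Different probe sets of a gene did not always give the same answer. Of 4717 genes with at least 2 tested probe sets, 149 had calls in both directions, 548 had 2 or more called higher with none opposite and 288 had 2 or more called lower with none opposite. Fxr1, an RNA-binding protein related to the fragile X protein, had probe sets at -4.84 (SE 0.50) and 2.62 (SE 0.49). The one that represents it had a difference of 1.38, whose call ended without either GV array or in vivo replicate 1 (adjusted p up to 0.18). The guanine nucleotide binding subunit Gnb4 had probe sets at -3.83 (SE 0.44) and 2.76 (SE 0.36), and the cyclin Ccnh at -3.53 (SE 0.42) and 2.68 (SE 0.60). Dnmt3a, the de novo DNA methyltransferase, rose by 2.44 on the probe set that represents it and had another called lower (-4.69). Each gene is represented by the probe set with the highest mean over all 15 arrays, all but 2 of which are MII arrays, so where probe sets disagree the choice leans to those that are bright at MII. Which transcript form each probe set reads was not tested.

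Most markers of other cells of the ovary and oviduct were low in GV oocytes, and those called were higher at MII. Summed deposited intensities of 14 oocyte markers were 118050 and 121757 in the GV arrays and 24395, 73551 and 68472 in the MII arrays, and none of the 14 was below 4.17 in all arrays of a stage. Of 17 cumulus and granulosa markers, Kitl (2.25) and Ptgs2 (2.13) were higher at MII and 0 lower, and the sums were 767 and 641 in GV arrays and 341, 747 and 799 in MII arrays. After quantile normalization the cumulus sums were 269 and 270.4 in GV arrays and 857, 467 and 555 in MII arrays, so on that scale every MII array was higher. Both calls rested on the GV arrays: that of Kitl ended without GV replicate 2 and that of Ptgs2 without GV replicate 1. Below 4.17 in both GV arrays were 11 of the 17, and in all 3 MII arrays 4. With 3 arrays instead of 2 that condition is harder to meet, so these counts are not directly comparable.

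Leukocyte, oviduct and red cell markers also gave calls in the MII direction only. Cd14, Sprr2f and Hba-a1 were below the filter, were tested without it and were not tested with arrays left out. Of 17 leukocyte markers, Ctss (4.27) and Cd14 (3.27) were higher, with summed deposited intensities of 300.3 and 236 in GV arrays and 408, 819.9 and 757 in MII arrays. The normalized leukocyte sums were 134 and 129 in GV arrays and 1017, 511 and 549.7 in MII arrays. Below 4.17 in both GV arrays were 14 of these 17, and in all MII arrays 4, with the limit given for the cumulus markers. Of 14 oviduct markers, Ovgp1 (3.63), Sprr2f (4.23) and Cdh1 (1.11, a call that ended without GV replicate 1) were higher, with sums of 3021 and 3120 in GV arrays and 3167, 4432 and 4751 in MII arrays, and normalized sums of 1427 and 1768 against 5519.8, 2883 and 2935. Most of these sums came from Cdh1, the cadherin of epithelia and oocytes, at 10.34 and 10.66 in GV oocytes and 12.26, 11.39 and 11.19 at MII. Of 4 erythroid markers, the globin gene Hba-a1 (4.67) was higher, with sums of 105 and 169.7 against 55.7, 119 and 220.1, and normalized sums of 39.6 and 55.0 against 129.7, 75.3 and 153. The part of other cells in the rises of Ctsc, Ctss, Saa3 (3.98) and Slfn4 (4.01) was not tested, and the call of Saa3 ended without GV replicate 2 and that of Slfn4 without any of 4 arrays.

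Whether the in vivo MII oocytes differed from adult oocytes matured for 16 h in vitro was tested in the same model on 2 further arrays. In limma 1 of 22519 probe sets was called (0.00444%), a probe set without a gene symbol, and 0 of 12028 genes, with 1801 probe sets (8.00%) at an unadjusted p below 0.05. Of the 2 in vitro arrays 1 was dimmer than in vivo replicate 1, and a difference that missed the threshold does not show that the maturation routes gave the same transcripts. As 0 genes passed, this covers Cdk1, Zp3 and Padi6, which fell between GV and in vivo MII, and shows nothing particular to them. Without the 4 dimmest arrays of the series 122 probe sets were called, but 1 in vitro array then stood against 2 in vivo arrays, with the spread taken from the other groups.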

How the data were processed

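The deposited table holds intensities on a linear scale, made by the authors with MAS5 per the submitters' processing notes. The sources used here give neither the MAS5 version nor its target. From the 45101 probe sets 64 controls were left out, log2 of the deposited intensities was quantile normalized over all 15 arrays, and the 22519 probe sets with a mean in the upper 50% (log2 of at least 3.07) were tested. Limma 3.58.1 in R 4.3.3 fitted 6 groups together (9 residual degrees of freedom, intensity trend, Benjamini-Hochberg adjustment), and the method was tested on simulated data. Nothing in the labels ties the pools to separate animals, so p-values cover only how these samples vary, which may be technical variation. The number of arrays limits the precision.

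Of the single gene symbols in the platform annotation (34958 probe sets), 34754 were updated against the GRCm38.p6 gene table. A gene is represented by its probe set of highest mean over the 15 arrays. Members and gene lists were chosen with earlier results of these data known, and subgroups of lists were set afterwards by subunit name. Named genes were the 15 largest rises and falls with non-overlapping arrays and a level of at least 4.17 (60th percentile) in all 5 arrays, the 10 narrowest intervals within -1 and 1, up to 3 rises and 3 falls per list with all members of short lists, up to 5 larger differences per direction outside that level, up to 6 genes with opposite probe sets, and 10 stage and reference genes. Other members were named after their values were seen. Markers were tested without the filter. Alternatives were the scaling, filter, pseudocount, arrays fitted, variance trend, array weights, title number as block, mean over probe sets and leaving out arrays.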

Additional observations from a re-analysis of the deposited data

Results flagged for a closer look

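A probe set that has no gene symbol in the platform annotation differed between adult in vivo and in vitro MII oocytes by 5.03 on the log2 scale (SE 0.59, adjusted p = 0.0111 in limma), and it was the only one of 22519 to pass. It stood at 4.30 and 4.82 in GV oocytes, at 4.53, 4.63 and 4.51 in vivo at MII, and at -0.31 and -0.64 in vitro. Both in vitro values were below 3.07, the mean level required for testing, with deposited intensities of 0.821 and 0.397, so the size of the difference is not a measured fold. The in vitro arrays were thus the ones that stood apart, and in vivo MII did not differ from GV (-0.01, SE 0.59). The number of such probe sets was 0 to 5 in all settings tried except the one without the 4 dim arrays.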

How the results depend on the processing

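Against 6037 probe sets and 3677 genes called between in vivo MII and GV, 3419 and 1940 were called with the values as deposited and 10291 and 5997 with array weights, which gave in vivo replicate 1 a weight of 0.254. Leaving out 1 array gave 3308 to 5740 probe sets and 2067 to 3499 genes, the lowest without GV replicate 2, when a single GV array is assumed to vary like the other groups. The other settings stayed within 1.5 times the reported counts. With the values as deposited the difference of these genes turned from positive to negative: Alg2 (-0.18), Brwd1 (-0.40), Clock (-0.29), Eif2a (-0.43), Hk2 (-0.09), Hspa14 (-0.44), Lamtor2 (-0.078), Mrpl1 (-0.083), Ndc1 (-0.041), Ndufs4 (-0.12), Ppp3cb (-0.70), Prkaca (-0.044), Rpl13a (-0.35), Tars (-0.62), Tpp1 (-0.13) and Tsc1 (-0.40). With the mean of the probe sets of a gene the same held for Cep41 (-0.46), Cntd1 (-0.14), Dicer1 (-1.05), Dnajc1 (-1.04), Dnmt3a (-0.20), Eif2s2 (-0.72), Fxr1 (-0.064), Gnb4 (-1.13), Nectin3 (-0.90), Prkar1a (-0.14) and Rpl13a (-1.47). Without the 4 dim arrays Prkacb turned to 1.25. Values as deposited lower every difference by the same amount against median scaling, but not against quantile normalization. The first of these lists holds rises of ordinary size after quantile normalization, such as Ndufs4 (1.80), Lamtor2 (1.80) and Alg2 (1.64). The median of all genes called higher was 1.71. The cause of the changes was not tested. Between in vivo and in vitro MII, 1 probe set was called, against 0 with the values as deposited, the upper 30% of probe sets, a pseudocount, the arrays alone or array weights, 5 without a variance trend, 122 without the 4 dim arrays (where 1 in vitro array is assumed to vary like the other groups) and 0 to 2 without 1 array. No paired analysis was possible because the labels number no replicates that could be matched between the groups. Only 2 GV arrays, the dim in vivo replicate 1 and signals near background limit these results.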

Other observations

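Genes of egg calcium signalling, through which sperm activates the MII oocyte, had 5 of 26 tested higher at MII and 2 lower, with a median of 0.47, and 2 rises and both falls held when any 1 array was left out. These shares, 19.2% higher and 7.69% lower, stand beside 18.3% and 12.3% of all genes. Prkci, an atypical protein kinase C, was near 10.8 in all 3 MII arrays, above both GV arrays. It rose by 1.65 (SE 0.21), also with median scaling. Camk2g, the calmodulin-dependent kinase that relays the calcium signal in mouse eggs, was at 10.22 and 10.45 in GV oocytes and at 5.45, 8.08 and 7.55 at MII. It fell by 3.31 (SE 0.70), and Micu2, a regulator of mitochondrial calcium uptake, fell by 2.66 (SE 0.43), both with all 3 scalings. The calcium pump gene Atp2a2 had a difference of -0.05 (SE 0.26) and overlapping arrays.

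Genes of ER translocation and glycosylation had 9 of 53 tested higher and 11 lower (17% and 20.8%, beside 18.3% and 12.3% of all genes). Their median was -0.21, and 3 rises and 7 falls held in the same way. Emc8, of the ER membrane complex, was at 8.03 and 9.18 in GV oocytes and at 4.30, 4.16 and 3.06 at MII, and fell by 4.77 (SE 0.61). Spcs1, of the signal peptidase, fell by 2.93 (SE 0.29) and Srpr, the receptor of the signal recognition particle, by 2.94 (SE 0.54). All 3 passed with each scaling. Ostc, of the oligosaccharyltransferase, rose by 2.01 (SE 0.40), a call lost with median scaling. Circadian clock genes had 3 of 17 higher and 2 lower (17.6% and 11.8%), near the 18.3% and 12.3% of all genes. Of these 5 calls the fall of Nfil3 by 3.50 (SE 0.49) alone held without each array.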
